A study of Arabidopsis thaliana with 28 samples.

Results

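The transcriptome of tetraploid Arabidopsis thaliana seedlings was compared with that of their diploid progenitor over every nuclear gene of the deposited expression table. All 33278 nuclear genes were members, of 33557 genes listed, and the other 279 were plastid and mitochondrial genes that were listed at 0 in both genotypes. The diploid was the accession Columbia (Col-0), and the tetraploid (4XCol-0) was an autotetraploid line that had been made from Col-0 with colchicine. No transgene, mutation or treatment was named for either, and both were grown on Murashige and Skoog medium with 1% sucrose and 0.8% agar for 10 days under 16 h of light and 8 h of dark, after 3 days of cold stratification. The labels name the tissue as seedling and the methods as aerial parts, and RNA came from 3 biological replicates per genotype, but the table holds 1 combined value per gene and genotype. No spread between replicates could therefore be computed, no difference below was tested, and all statements describe these 2 columns of values.

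An autotetraploid carries a doubled set of the same chromosomes, so every gene keeps its dosage relative to every other gene. Doubling the genome of Arabidopsis is known to enlarge cells, stomata and organs. Because the values were FPKM, read fragments scaled to the length of the gene and to the total of each genotype, a change in the amount of RNA per cell that touched all genes alike would not be seen, and fewer cells of a type cannot be told apart from less RNA per cell. Plants respond to low phosphate with a set of genes under the transcription factor PHR1, which binds a short promoter element called P1BS. This set takes up phosphate, releases it from nucleic acids and phosphate esters, and exchanges membrane phospholipids for galactolipids and sulpholipids.

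Most genes stayed close to their diploid level. Of the 33278 genes, 18346 reached 1 FPKM in at least one genotype, and 91.5% of these lay within 1.5-fold. Differences were expressed as the log2 ratio of FPKM + 1 in 4XCol-0 over FPKM + 1 in Col-0, which understates the change of genes of low level. The median ratio of the expressed genes was 0.08, with quartiles of -0.10 and 0.27, and 61.4% of them had a ratio above 0. At least 2-fold higher levels in 4XCol-0 were found for 0.604% of all nuclear genes (1.1% of expressed genes), and at least 2-fold lower levels for 0.4% (0.725% of expressed genes). At 1.5-fold the shares were 3.46% and 1.45% of all nuclear genes, or 6.09% and 2.46% of expressed genes. The genes on both sides differed in level: the median diploid level was 3.55 FPKM for the 201 genes that were 2-fold higher, 13.5 FPKM for the 133 that were 2-fold lower, and 10.2 FPKM for all expressed genes. Scaling both genotypes to the same upper quartile gave 148 higher and 147 lower genes, and scaling to the same median gave 124 and 159, so the balance of directions depended on the scaling. At 4-fold the order was the other way round, with 5 genes higher and 24 lower, of which 3 and 9 were listed at 0 in the other genotype.

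**Figure D1:**
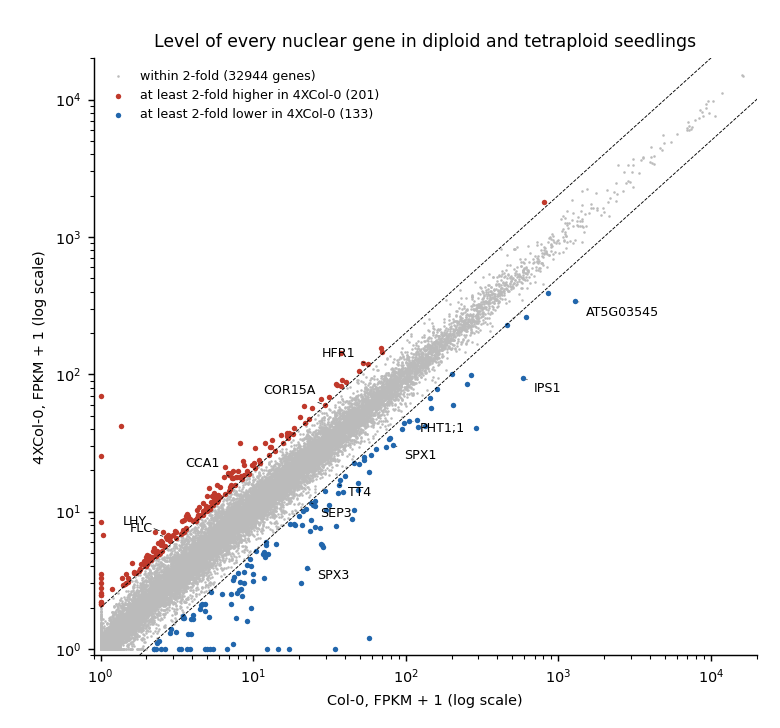
Level of each nuclear gene in Col-0 (x axis) and 4XCol-0 (y axis), as FPKM + 1 on log scales, 1 combined value per gene and genotype. The dashed lines mark 2-fold, red points are the 201 genes at least 2-fold higher in 4XCol-0, blue points the 133 at least 2-fold lower, and the blue points reach farther from the diagonal at high levels, as for IPS1 and AT5G03545.

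The limits of 2-fold cut through a continuous range. Just inside the upper limit lay AT2G30960, a gene annotated as myosin-M heavy chain-like, at 4.22 FPKM in Col-0 and 9.45 FPKM in 4XCol-0, and just outside it lay TRFL8 at 1.23 and 3.46 FPKM. Just inside the lower limit lay AZI1, which codes for a lipid transfer protein of systemic defence priming, at 459 and 228 FPKM. Just outside it lay AT2G43535, a knottin-like gene, at 553 and 277 FPKM.

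The labelled tissue was checked with marker genes. Mesophyll markers were abundant in both genotypes, with RBCS1A, a small subunit of Rubisco, at 9250.1 FPKM in Col-0 and 8695 FPKM in 4XCol-0, and all 5 mesophyll markers lay within 1.5-fold. Of 5 floral identity genes, AP1, AP3, PI and AG stayed under 1 FPKM, while SEP3 was at 23.0 FPKM in Col-0 and 10.6 FPKM in 4XCol-0, a ratio of -1.05. The root stem cell genes WOX5 and PLT1 stayed under 1 FPKM. Root markers were nevertheless present, with CASP1, which builds the Casparian strip of the root endodermis, at 76.6 and 61.8 FPKM and EXPA7, a root hair expansin, at 21.5 and 15.3 FPKM. All 6 root markers of at least 1 FPKM were lower in 4XCol-0, with a median ratio of -0.40 and a summed level of 137 FPKM in Col-0 and 102 FPKM in 4XCol-0. All 5 guard cell markers were higher, with a median of 0.61 and sums of 45.3 and 64.9 FPKM. The part of these cell types in the differences below was not tested.

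A large group of lower genes belonged to the phosphate starvation response. Of 62 different genes in 4 lists (signalling, transport, membrane lipids, and phosphatases and nucleases), 54 reached 1 FPKM, 20 were at least 2-fold lower in 4XCol-0 and 0 were 2-fold higher. The median ratio over the 54 was -0.41, beside 0.08 for all expressed genes. The 20 genes summed to 2903 FPKM in Col-0 and 775 FPKM in 4XCol-0, which was 39.1% of the FPKM lost by all 2-fold lower genes. These lists were chosen with earlier results of the same data known, so their direction is a description.

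Among the signalling genes, the lower ones were those that report the phosphate state, while the regulators above them were not lower. IPS1, a noncoding RNA that sequesters the microRNA miR399, was at 589.9 FPKM in Col-0 and 92.9 FPKM in 4XCol-0. Its relative AT4 (AT5G03545) was at 1292 and 339.9 FPKM, a log2 ratio of -1.92. SPX1, a phosphate sensor that holds PHR1 back when phosphate is plentiful, was at 81.7 and 29.6 FPKM, and SPX3, of the same family, at 21.5 and 2.87 FPKM. Of the 15 expressed members of this list, these 4 were the only ones past 1.5-fold in the lower direction, and the median of the list was 0.13. PHR1 itself was at 15.7 and 22.6 FPKM, and PHO2, the ubiquitin conjugase that is the target of miR399, was at 11.4 and 16.5 FPKM. SPX4 (6.81 and 10.6 FPKM) and the transcription factor WRKY75 (2.46 and 4.84 FPKM) also had ratios above 0.

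In the transport list, 5 of 13 expressed genes were 2-fold lower and 8 were 1.5-fold lower, with a median of -0.59. The high-affinity phosphate uptake carrier PHT1;4 was at 56.4 FPKM in Col-0 and 18.3 FPKM in 4XCol-0, a ratio of -1.57. G3Pp1, a glycerol-3-phosphate permease, was at 63.3 and 27.5 FPKM. PHT1;1 (105 and 44.8 FPKM) and PHT1;2 (6.49 and 2.31 FPKM) are neighbours among the expressed genes of chromosome 5. They are near-identical in sequence, so the split of reads between them is uncertain. PHF1, which helps the carriers leave the endoplasmic reticulum, was at 24.95 and 16.3 FPKM.

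The lipid list was lowest of the 49 lists examined on this scale, with a median ratio of -0.82 over 14 expressed genes. Of these, 6 were 2-fold lower. With a pseudocount of 0.1 the list of phosphatases and nucleases was lower, at -1.013 beside -0.835. Without a pseudocount it was lower too, at -1.044 beside -0.867. MGD3, a monogalactosyldiacylglycerol synthase of the phosphate-starved plastid envelope, was at 27.9 and 4.54 FPKM, a ratio of -2.38, and its relative MGD2 was at 22.9 and 7.75 FPKM. MGD1, which makes the bulk of galactolipid for thylakoids, stayed within 1.5-fold. GDPD1, a glycerophosphodiester phosphodiesterase, was at 250.5 and 84.4 FPKM. The phospholipases NPC4 (7.77 and 2.00 FPKM) and PLDP2 (8.91 and 2.496 FPKM) break down phospholipids, and SQD2, the last step of sulpholipid synthesis, was at 145 and 55.6 FPKM. SQD1 and UGP3, earlier steps of the same pathway, had ratios of -0.80 and -0.84.

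Of 12 expressed phosphatases and nucleases, 5 were 2-fold lower, with a list median of -0.70. The phosphatases PECP1, which acts on phosphoethanolamine and phosphocholine, and PS2, a relative that acts on pyrophosphate, were at 43.8 and 45.0 FPKM in Col-0 and at 7.82 and 9.27 FPKM in 4XCol-0. RNS1, a secreted ribonuclease, was at 10.7 and 2.29 FPKM. Purple acid phosphatases as an annotated family, chosen after the values were seen, had 6 of 21 expressed members 2-fold lower and 0 higher. They included PAP17 (119 and 40.3 FPKM), PAP14 (34.1 and 6.91 FPKM) and PAP24 (8.74 and 0.974 FPKM).

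**Figure D2:**
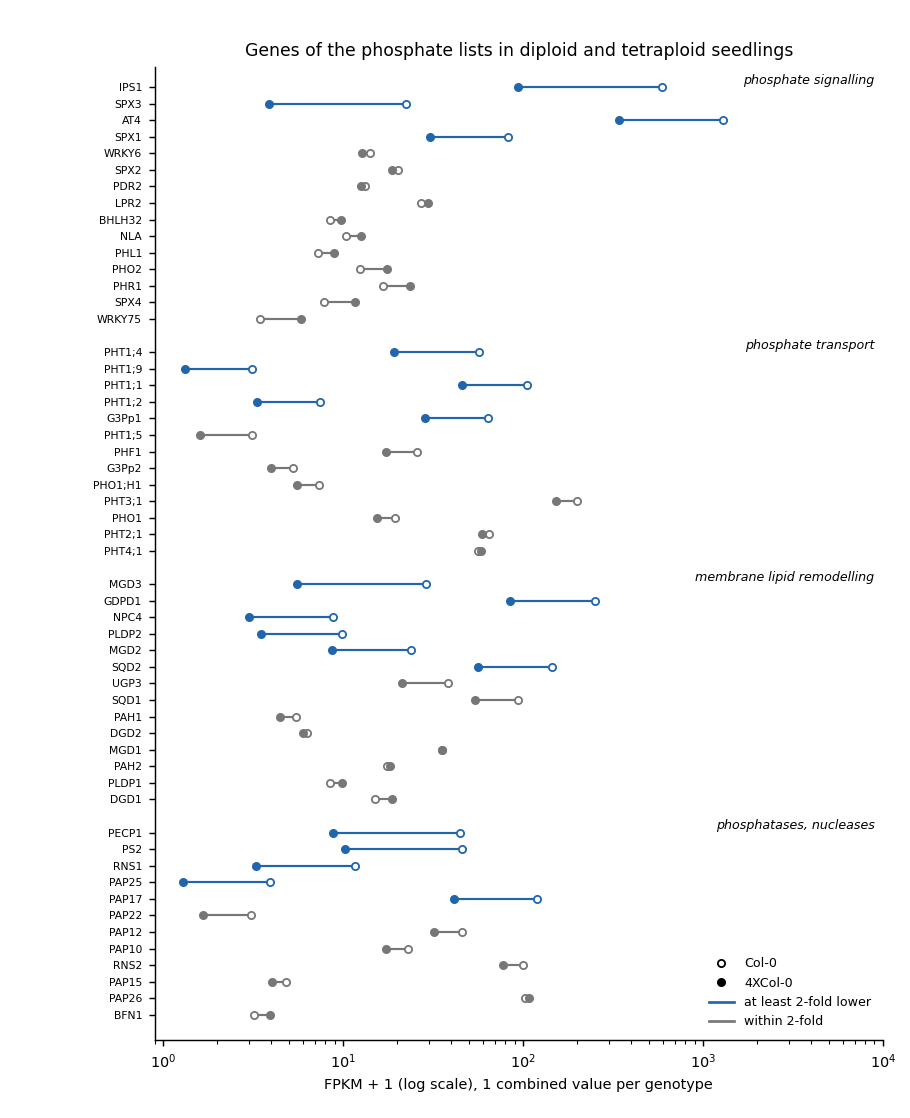
Level of each gene of the 4 phosphate lists with at least 1 FPKM, as FPKM + 1 on a log scale, open circles for Col-0 and filled circles for 4XCol-0, 1 combined value each. Blue lines mark the 20 genes at least 2-fold lower, such as MGD3 (27.9 to 4.54 FPKM), and grey lines those within 2-fold, such as PHR1 (15.7 to 22.6 FPKM).

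The promoters of the lower genes held the P1BS element more often than other promoters. P1BS was searched as GNATATNC, which reads the same on both strands, from 250 bases before to 50 bases after the annotated gene start. It was found in 43 of 132 promoters of 2-fold lower genes, a share of 32.6% (95% Wilson interval 25.2 to 41.0), in 8.46% of the promoters of 2-fold higher genes, in 6.34% of those of expressed genes and in 6.08% of all 32820. It was found in 12 of the 20 lower genes of the phosphate lists (interval of the share 38.7 to 78.1%) and in 21.4% of the 42 list members that were not 2-fold lower (11.7 to 35.9). Among the 112 lower genes outside these lists 31 held it, a share of 27.7%. The intervals cover counting error only, and a match describes letters and not binding. The sites in 7 such promoters are shown to let the element be seen in its surroundings, as the gene's own strand, 5′ to 3′, with P1BS in capitals and positions in the TAIR10.1 build.

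SPX3, chr2:18606309-18606338, plus strand: gctaaagctaaGCATATCCgctttcatatt
PS2, chr1:27466547-27466576, minus strand: tttgggtaacgGAATATTCttctcttattc
PAP24, chr4:12814591-12814620, minus strand: agaaactgttaGAATATTCctgactaaaga
GDPD1, chr3:350055-350084, minus strand: ggcgatccaaaGAATATTCcaagatcccat
MGD2, chr5:6896438-6896467, plus strand: tatatactactGAATATTCttttgttaata
NPC4, chr3:845297-845326, minus strand: cttgaaaaagtGAATATTCttgacacagac
AT4, chr5:894545-894574, plus strand: tttggtaattgGCATATTCcttttagaaga

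The first base of the site lay 90 bases before the gene start in SPX3, 217 in PS2, 153 in PAP24, 63 in GDPD1, 14 in MGD2, 219 in NPC4 and 26 in AT4. In 5 of the 7 the element read GAATATTC. The 7 are only a part of the sites, and promoters not shown held other forms too, such as GAATATAC in PAP14 and GGATATTC in SPX1. The count therefore does not give the share of this form.

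The lower genes with the element outside the phosphate lists, named here after their values were seen, included further genes of phosphate metabolism. PPCK1, the kinase of phosphoenolpyruvate carboxylase, was at 78.5 FPKM in Col-0 and 33.6 FPKM in 4XCol-0. PPa4, a soluble pyrophosphatase, was at 52.7 and 23.9 FPKM, and GDPD6, of the phosphodiesterase family, at 6.80 and 1.57 FPKM. Among genes with less known roles were AT3G25240 of the DUF506 family at 19.5 and 2.02 FPKM, and AT1G19200 of the DUF581 family at 27.3 and 4.72 FPKM. AT5G09570, a Cox19-like gene, was at 26.5 and 6.65 FPKM. GPT2, the plastid glucose-6-phosphate translocator of the starch and sugar list, was at 3.03 and 0.655 FPKM and also held the element.

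The iron, copper, zinc, nitrate and sulphate lists held 0 genes past 2-fold in the lower direction on this scale. With a pseudocount of 0.1 there were 3 such genes in the iron list, 1 in the copper list and 1 in the zinc list, and with median scaling 1 in the nitrate list. Iron deficiency genes had a median of -0.15 over 23 expressed members, with the signalling peptide gene IMA2 at 2.06 and 0.579 FPKM and the iron store gene FER3 at 69.4 and 42.2 FPKM. Copper and zinc lists had medians of -0.17 and -0.16. In the nitrate list the largest difference was that of NRT3.1, a partner of the high-affinity nitrate carriers, at 18.02 and 9.10 FPKM. The 19 sulphate genes had a median of -0.02, and none was past 1.5-fold.

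Structural proteins of the cell wall, named after their values were seen, formed another lower group. Of 39 expressed genes annotated as extensins or extensin-like, 8 were 2-fold lower, 18 were 1.5-fold lower and 0 were 1.5-fold higher, with a median of -0.51. EXT3, a hydroxyproline-rich protein that forms the scaffold of new cell plates, was at 618 FPKM in Col-0 and 262 FPKM in 4XCol-0. EXT6 was at 6.399 and 2.201 FPKM, and AGP13, an arabinogalactan peptide, at 97.01 and 42.99 FPKM. Among 44 wall-loosening genes, EXPA17 (3.46 and 0.946 FPKM), EXPA15 (34.7 and 21.0 FPKM) and EXLB1 (15.9 and 7.95 FPKM) of the expansin superfamily were at least 1.5-fold lower. The xyloglucan endotransglucosylases XTH16 (20.4 and 35.7 FPKM) and XTH9 (93.5 and 154 FPKM) were at least 1.5-fold higher. Of 28 genes of cellulose and secondary wall synthesis, 0 were past 1.5-fold.

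Lower levels were also found for secreted defence proteins, of which HCHIB and OSM34 were named after their values were seen. PR4, a chitin-binding protein, was at 859 and 390.2 FPKM, HCHIB, a basic chitinase, at 203 and 58.96 FPKM, and OSM34, an osmotin, at 118 and 45.5 FPKM. Lipid transfer proteins had 3 of 70 expressed members 2-fold lower and 0 higher, with a median of -0.31, and class III peroxidases 3 of 56 and a median of -0.21. AIR1 and its neighbour AT4G12545, lipid transfer-like genes, the former first known from auxin-treated root cultures, were at 268 and 133 FPKM in Col-0 and at 98.3 and 41.3 FPKM in 4XCol-0. The root markers given above were lower too, and their part in this result was not tested. TT4, PAP17, HCHIB and GDPD1 each overlap a gene on the opposite strand, and whether the counting used strand is not given in the sources used here, so their values are uncertain to that degree. The marker genes of the salicylic acid pathway differed in direction, with PR5 at 9.40 and 5.36 FPKM and WRKY70 at 5.25 and 9.88 FPKM, and a list median of 0.05.

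Lower genes in other lists included TT4, chalcone synthase at the entry of flavonoid synthesis, at 35.5 and 14.6 FPKM, beside the floral identity gene SEP3 given above. MYB12, an activator of TT4, was at 2.33 and 0.999 FPKM. Aliphatic glucosinolate genes had 6 of 38 members 1.5-fold lower, among them BCAT4, the first step of chain elongation, at 155 and 87.5 FPKM.

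Among the higher genes, several were morning genes of the circadian clock. In Arabidopsis, CCA1 and LHY are MYB factors that peak at dawn and repress evening genes, and the evening genes repress them in turn. Of 31 clock genes, 5 were 2-fold higher and 0 were 2-fold lower, while 12 were 1.5-fold higher and 2 were 1.5-fold lower. LHY was at 1.55 FPKM in Col-0 and 6.10 FPKM in 4XCol-0, a ratio of 1.48, and CCA1 was at 6.31 and 16.6 FPKM. RVE8, a MYB factor that activates evening genes, was at 6.18 and 14.7 FPKM, and LNK3, of a family of clock coactivators, at 17.5 and 39.7 FPKM. CDF1, a Dof repressor of CONSTANS, was at 2.88 and 7.88 FPKM.

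In all, 18 of the 31 clock genes had a ratio above 0, beside 61.4% of all expressed genes. The list median was 0.22, 0.08 after centring by purine content and 0.61 without a pseudocount. The clock genes at least 1.5-fold lower were ELF4, of the evening complex, at 33.98 and 17.7 FPKM, and FKF1, a blue light receptor that removes CDF proteins, at 4.00 and 2.27 FPKM. The time of day of harvest is not given in the sources used here. The evening element AAAATATCT was found in 5.97% of promoters of 2-fold higher genes (95% Wilson interval 3.45 to 10.1), in 2.27% of those of 2-fold lower genes and in 3.09% of those of expressed genes. In the clock list itself the share was 29.0%.

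Single genes of the light and hormone lists were higher as well. At least 2-fold higher were 2 of 30 light signalling genes (list median 0.28), 2 of 34 gibberellin and brassinosteroid genes (-0.03), 1 of 43 auxin genes (0.09) and 2 of 28 cytokinin genes (0.23). The count of the light list was 0 after upper-quartile scaling, median scaling or centring by purine content, and that of the gibberellin and brassinosteroid list was 0 after the centring. HFR1 and PIL1, bHLH genes induced in shade, were at 55.9 and 1.32 FPKM in Col-0 and at 118 and 3.76 FPKM in 4XCol-0. ATHB2, a shade-induced homeodomain gene, was at 141 and 252 FPKM. BEE2, a brassinosteroid-responsive bHLH gene, was at 17.2 and 35.7 FPKM, and BR6OX2, which makes brassinolide, at 3.92 and 9.56 FPKM. The auxin-responsive repressor IAA2 was at 67.6 and 154 FPKM. In the cytokinin list the response regulator ARR7 was at 2.14 and 5.44 FPKM and CKX5, which degrades cytokinin, at 3.903 and 10.01 FPKM. The bHLH family had 3 of 81 expressed members 2-fold higher and 0 lower, and the G-box CACGTG, which bHLH factors can bind, was in 12.9% of the promoters of higher genes (95% Wilson interval 8.98 to 18.3, which includes the share of expressed genes), 3.79% of those of lower genes and 8.99% of those of expressed genes.

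Genes of cold and drought responses were higher singly rather than as whole lists. COR15A, a chloroplast cryoprotectant, was at 28.5 and 58.5 FPKM, and LTI65 (RD29B) was at 1.52 and 4.68 FPKM. The largest gain in FPKM of any gene was that of the dehydrin AT1G54410, from 801 to 1796 FPKM. The cold list had 2 of 24 genes 2-fold higher and a median of 0.26, although the upstream activator CBF1 was at 2.16 and 1.23 FPKM. The abscisic acid and drought list, which does not hold LTI65, had 0 of 37 genes past 2-fold on this scale. With a pseudocount of 0.1 it had 2 genes 2-fold higher and 0 lower.

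The floral repressor FLC was at 1.695 FPKM in Col-0 and 5.48 FPKM in 4XCol-0, a ratio of 1.26, and the gene next to it, AT5G10150, was at 6.64 and 14.7 FPKM. The related MAF2 was at 17.44 and 26.99 FPKM. Of 31 expressed flowering time genes FLC was the only one past 2-fold, and the list median was 0.12. KAT1, the inward potassium channel of guard cells, was at 5.05 and 14.0 FPKM, and is itself among the guard cell markers given above. The stomatal development list had a median of 0.36 with 3 of 19 genes 1.5-fold higher.

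Genes of nuclear architecture had the highest list median at the settings used, close to the 0.36 of the stomatal development list. After centring by purine content that list was above it, at 0.24 beside 0.09, as were others such as light signalling (0.17) and cytokinin (0.14). Without a pseudocount its median was 0.26 for the nuclear architecture list and 0.61 for the clock list. Others were above 0.26 too, such as Polycomb (0.41) and heat shock (0.39), so the rank depended on the setting. Of 25 expressed genes of condensin, cohesin and the nuclear lamina, 6 were 2-fold higher and 0 lower, with a median of 0.37. All 4 LINC genes, plant-specific coiled-coil proteins of the nuclear lamina, were among them, with LINC1 at 3.72 and 10.5 FPKM and LINC4 at 1.87 and 5.06 FPKM. The count of 2-fold higher genes in this list was 3 after upper-quartile scaling and 1 after median scaling. The cohesin subunits SMC1 and SMC3 were at 1.43 and 1.44 FPKM in Col-0 and at 3.91 and 4.02 FPKM in 4XCol-0. Chromatin proteins of the DEK family, a group chosen after the values were seen, had 3 of 4 members 2-fold higher, led by AT3G48710 at 1.26 and 6.06 FPKM. The median of the DEK group was 1.33, and 0.92 after centring by purine content. The linker histone gene HIS1-3, which is induced by drought and was likewise chosen after its value was seen, was at 69.0 and 145 FPKM. Cell cycle lists had no gene past 2-fold on this scale, with medians of 0.10 for G1 and S phase and 0.20 for G2 and M phase. With a pseudocount of 0.1, 5 genes of the G2 and M list were 2-fold higher and 0 lower. The G1 and S list still had 0 in either direction.

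Proteins of chloroplast movement and their WEB relatives, also chosen after the values were seen, had 4 of 20 expressed members 2-fold higher and 11 past 1.5-fold, with a median of 0.66. After centring by purine content this median was 0.25. WEB1 was at 4.90 and 12.1 FPKM, and PMI15, needed for fast chloroplast avoidance, was at 2.64 and 6.53 FPKM. CHUP1, which ties chloroplasts to actin, was at 14.2 and 35.3 FPKM, and JAC1, needed for their accumulation response, at 10.1 and 21.4 FPKM.

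**Figure D3:**
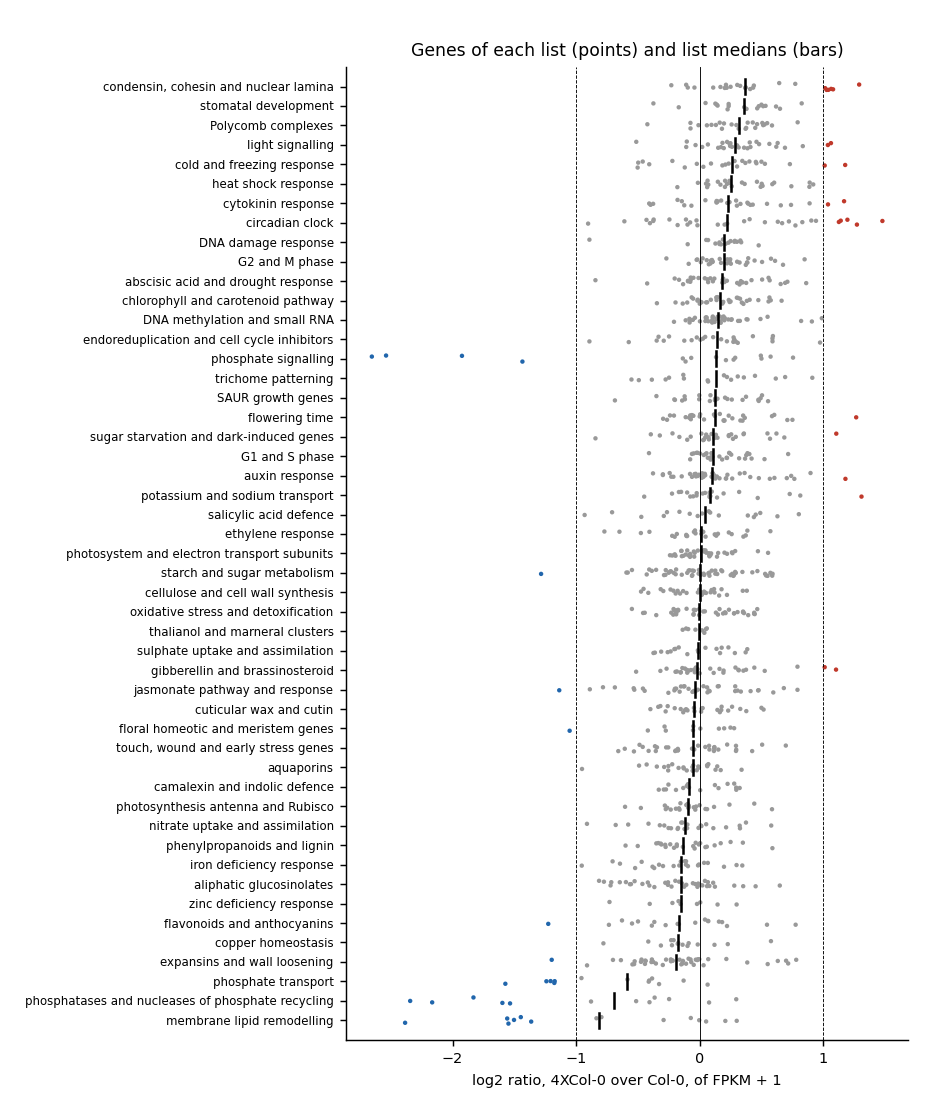
Log2 ratio of FPKM + 1, 4XCol-0 over Col-0, for each expressed gene (points) of each list (rows), with the list median as a black bar and dashed lines at 2-fold. The lowest medians are those of membrane lipids (-0.82), phosphatases and nucleases (-0.70) and phosphate transport (-0.59), and the highest that of condensin, cohesin and lamina genes (0.37).

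Many functions were level between the genotypes. The 36 photosystem and electron transport genes had a median of 0.01 with 0 past 1.5-fold, and the 25 antenna and Rubisco genes a median of -0.09. The largest loss in FPKM of any gene was nevertheless that of an antenna gene, LHB1B1, at 10614 and 7627 FPKM. Of 313 expressed genes annotated as ribosomal proteins, 1 was 2-fold lower and 0 were higher. Of 143 annotated by name as cytochrome P450, none passed 2-fold. Both counts rest on the words of the annotation, so members annotated under other names are not in them. The median of 41 genes of oxidative stress was -0.01.

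The genes that were higher shared a feature of sequence that no list had used, which was the content of purines (A and G) in their exons. Over 17949 coding genes of at least 1 FPKM, the Spearman correlation of the log2 ratio with the purine percentage of the RNA strand was 0.45, a description across genes of the same libraries, which are not independent replicates. The median purine content was 56.4% for the 192 coding genes that were 2-fold higher, 49.0% for the 122 that were 2-fold lower and 50.5% for all. In the decile of genes richest in purines (54.2 to 69.8%) the median ratio was 0.42, 125 genes were 2-fold higher and 7 were 2-fold lower. In the decile poorest in purines (33.9 to 46.7%) the median ratio was -0.12, 5 genes were 2-fold higher and 38 were 2-fold lower.

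The relation was found at every level, length and chromosome examined. The correlation was 0.46, 0.46 and 0.40 from the lowest to the highest of 3 equal classes of level, and 0.39, 0.44 and 0.52 from the shortest to the longest of 3 classes of length. On single chromosomes it was between 0.44 and 0.46. Correlations with other properties were smaller, at -0.23 for GC content, 0.15 for exonic length and -0.16 for level. With 1 combined value per genotype the relation cannot be compared between replicates, and its source was not tested.

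**Figure D4:**
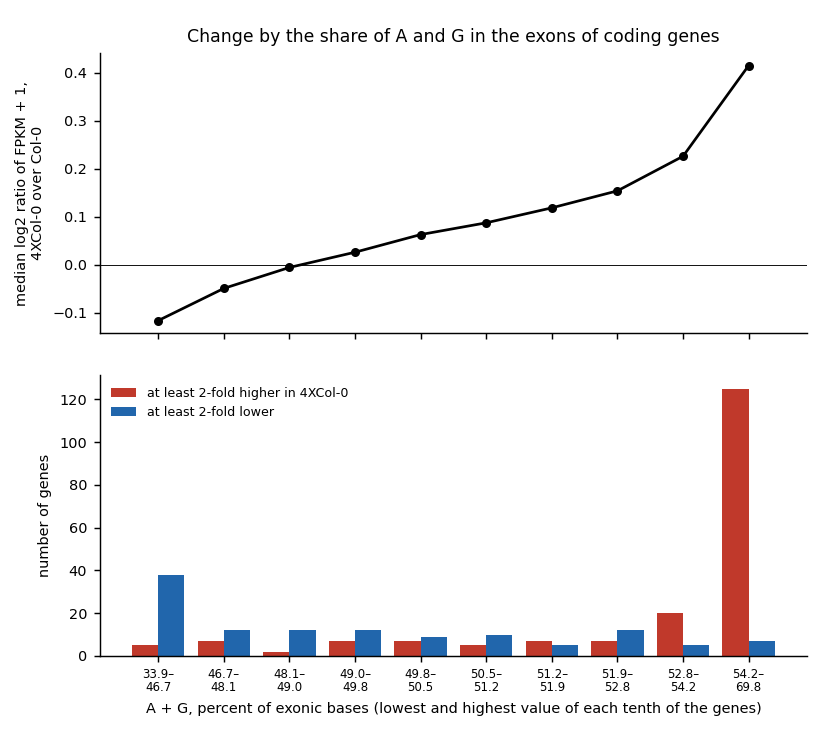
Coding genes of at least 1 FPKM in deciles by the percentage of A and G in their exons (x axis): the upper panel gives the median log2 ratio of FPKM + 1, 4XCol-0 over Col-0, and the lower panel the number of genes at least 2-fold higher (red) and lower (blue). The median goes from -0.12 in the poorest to 0.42 in the richest decile, which holds 125 of the 192 higher coding genes.

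Purine-rich exons often code for acidic coiled-coil or low-complexity stretches, because the glutamate codons are GAA and GAG and the lysine codons AAA and AAG. The hexamer GAAGAA occurred at a median of 2.89 per kb of exon in 2-fold higher genes, 0.516 in 2-fold lower genes and 1.25 in all. The richest 60-base coding stretch of 5 higher genes, picked after their values were seen, is shown to let this composition be seen, on the coding strand in the TAIR10.1 build, with GAA and GAG, in any frame, in capitals.

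AT4G26630, chr4:13432039-13432098, minus strand: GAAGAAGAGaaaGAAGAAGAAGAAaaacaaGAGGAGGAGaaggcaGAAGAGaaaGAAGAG
AT5G16030, chr5:5240420-5240479, plus strand: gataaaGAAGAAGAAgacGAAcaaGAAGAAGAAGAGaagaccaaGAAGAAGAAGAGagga
GT2, chr1:28873298-28873357, minus strand: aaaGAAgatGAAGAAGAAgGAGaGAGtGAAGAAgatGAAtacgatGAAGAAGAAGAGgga
AT3G48710, chr3:18041095-18041154, plus strand: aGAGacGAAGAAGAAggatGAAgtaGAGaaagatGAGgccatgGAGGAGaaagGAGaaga
LINC1, chr1:25153453-25153512, minus strand: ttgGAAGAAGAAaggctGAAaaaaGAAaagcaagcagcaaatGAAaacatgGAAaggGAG

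The purine share of these stretches was 96.7% in AT4G26630, a DEK protein at 7.69 and 20.9 FPKM, 91.7% in AT5G16030 and 90.0% in GT2, a trihelix factor at 6.36 and 18.7 FPKM. It was 88.3% in AT3G48710 and 83.3% in LINC1. LHY, among the higher genes, had an exon purine content of only 49.8%, so the feature did not run through all of them.

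When the median of its purine decile was subtracted from each expressed gene with annotated exons (all 201 higher genes and 132 of the 133 lower genes), 68 genes were 2-fold higher and 154 were 2-fold lower, and 63 of the 201 and 121 of the 133 genes called without this step were still called. The phosphate genes changed little, with a median of -0.53 in place of -0.41. The nuclear architecture list went from 6 genes 2-fold higher to 0, with a median of 0.09, and LINC1 had a centred ratio of 0.88. The clock list had 4 genes 2-fold higher and 1 lower, with LHY at 1.41 and CCA1 at 1.15 after centring. FLC at 1.04, KAT1 at 1.24 and IAA2 at 1.02 stayed above 2-fold, while CDF1, COR15A and LTI65 did not.

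The histone marks of the same study, read as peak lists of 2 libraries per genotype and mark, gave a readout that the expression columns had not used. H3K27me3, set by Polycomb proteins, marks silenced or conditionally expressed genes, and H3K4me3 marks the start of active genes. Peaks of H3K27me3 covered at least 50% of the gene in 39.1% ± 0.612 (SD, n = 4 peak lists) of the 2-fold lower genes, in 10.1% ± 1.11 of the 2-fold higher genes and in 9.60% ± 0.151 of expressed genes. The 4 lists ranged from 38.4 to 39.9% for the lower genes. The 1.5-fold lower genes, at 41.8% ± 1.35, were alike. A peak of H3K4me3 touched 31.01% of the 2-fold lower genes, 73.1% of the 2-fold higher genes and 78.7% of expressed genes, as means of 4 lists. With at least 50% of the gene covered this contrast was nearly gone in the means of the 4 lists. They were 11.7% ± 2.17 (SD, n = 4) for the lower, 14.3% ± 3.80 for the higher and 14.7% ± 1.83 for expressed genes. These means and SDs pool both genotypes, which differed for the higher genes. In Col-0 the higher genes were at 11.44 and 10.95%, beside 15.16 and 12.33% of expressed genes. In 4XCol-0 they were at 15.92 and 18.91%, beside 14.45 and 16.74%. The names of some H3K4me3 peak files mention merging or a replicate called Rep4, and what was merged is not given in the sources used here, so these lists may not be independent.

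**Figure D5:**
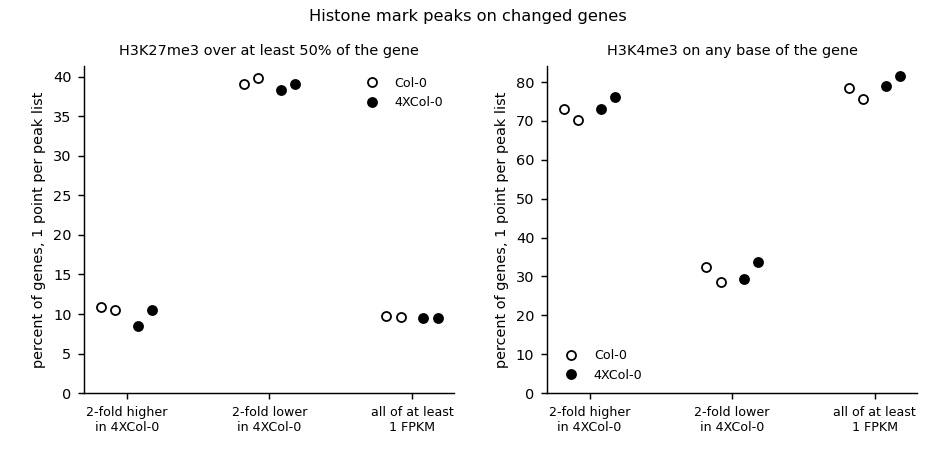
Percentage of genes with a peak of H3K27me3 over at least 50% of the gene (left) and with a peak of H3K4me3 on any base (right), 1 point per peak list, open for Col-0 and filled for 4XCol-0. Lower genes stand apart from expressed genes in all 4 lists of each mark (39.1% beside 9.60% for H3K27me3, and 31.01% beside 78.7% for H3K4me3, as means).

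H3K27me3 covered 37.5% of the length of the lower genes in Col-0 and 37.6% in 4XCol-0 on average, with single genes going both ways. Its cover was higher in both lists of 4XCol-0 for 13 of the 133 lower genes (9.77%, beside 2.23% of expressed genes) and lower in both for 10 (7.52%, beside 2.4%). A gene without a peak cannot enter these counts. A peak of H3K27me3 touched 47.2% of the lower genes and 14.1% of expressed genes, as means of 4 lists. The shares therefore have unlike bases and do not show that the mark changed more often on lower genes. IPS1, PHT1;1 and AT4G33720, a gene of the pathogenesis-related family at 6.36 and 0.0921 FPKM, were covered over 100% of their length in all 4 lists. PS2 was covered over 74.3 and 84.2% in the lists of Col-0 and over 86 and 80.5% in those of 4XCol-0, which overlap. AT4, RNS1 and PAP17 had no H3K27me3 peak in any list. FLC was covered over 95.9 and 87.2% in Col-0 and over 99.2 and 85.8% in 4XCol-0. Cover this close to the whole gene in every list leaves no room to show a difference in the amount of the mark.

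For H3K4me3 the cover of the gene was higher in both lists of 4XCol-0 than in both lists of Col-0 for 78 of the 201 higher genes (38.8%), beside 32.5% of all expressed genes, and for 4 of the 133 lower genes (3.01%). It was lower in both lists of 4XCol-0 for 4 of the higher genes (1.99%) and 7 of the lower genes (5.26%), beside 4.12% of expressed genes. The average cover of expressed genes was 23.9% in Col-0 and 26.6% in 4XCol-0, so a difference in this direction was also found over all expressed genes. MRD1, at 0.370 and 41.3 FPKM, was covered over 24.6 and 22.4% in Col-0 and over 67.9 and 84.9% in 4XCol-0. MRD1 overlaps HEI10, a gene of meiotic crossover control, on the opposite strand, and HEI10 was at 0.380 and 2.28 FPKM, so reads of the overlap may not be told apart. HFR1 was covered by H3K4me3 over 9.64 and 9.78% in Col-0 and over 44.4 and 58.2% in 4XCol-0, while H3K27me3 took 87.1 and 86.9% of it in the lists of Col-0, against 73.8 and 62.5% in those of 4XCol-0. COR15A was covered by H3K27me3 over 74.7 and 74.5% in Col-0 and over 25.6 and 54.3% in 4XCol-0. HIS1-3 was covered by it over 81.7 and 89.5% in Col-0 and over 30.7 and 0% in 4XCol-0, and by H3K4me3 over 32.8 and 50.9% in Col-0 and over 71.6 and 73.0% in 4XCol-0. These genes were singled out after their values were seen. Cover by H3K27me3 was lower in both lists of 4XCol-0 for 7 of the 201 higher genes (3.48%), beside 2.4% of expressed genes, and higher in both for 6 (2.99%), beside 2.23%. With 2 lists against 2, an exact permutation test cannot pass a threshold of 0.05, and no test was made.

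The changed genes were spread over the genome. Among expressed genes the share of 2-fold higher genes was between 0.951% on chromosome 1 and 1.28% on chromosome 5, and the share of 2-fold lower genes between 0.606% on chromosome 5 and 0.887% on chromosome 2. In 12 of 18341 pairs of expressed neighbours (0.0654%, beside 0.0331% for the square of the changed share) both genes were changed, and in 11 of these both went the same way. The pairs included the phosphate carriers PHT1;1 and PHT1;2, SPX3 and AT2G45135, the peroxidases AT2G38380 (161 and 77.4 FPKM) and AT2G38390 (93.6 and 38.7 FPKM), and FLC and AT5G10150. Several of them are tandem copies of one gene or overlap, so they are not independent.

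Of the 334 changed genes, 32 were listed at 0 in one genotype, and their exons were short, with a median of 334.5 bases and 19 of them under 400. NRPB12, a subunit that every nuclear RNA polymerase uses, was listed at 0 in Col-0 and at 68.7 FPKM in 4XCol-0, and the spliceosomal RNA gene U12 was at 33.4 FPKM in Col-0 and listed at 0 in 4XCol-0. Since a gene that every cell uses was among them, no fold is given for genes listed at 0. MIR838, listed at 0 in 4XCol-0 and at 11.4 FPKM in Col-0, lies inside DCL1 on the same strand, so its reads may belong to DCL1.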

How the data were processed

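Gene levels came from 1 table of the whole series, in which the authors had deposited FPKM values for diploid and tetraploid seedlings with 3 replicates per genotype already combined, in a way not given in the sources used here. The study's methods name STAR, featureCounts and the TAIR10 genome for RNA-seq. Low FPKM values showed no common step (14.5% and 14.0% of 3000 values lay within 0.05 of a whole multiple, beside 10% with no step), so the depth is unknown and no interval on a level can be given. The log2 ratio of FPKM + 1 was computed over all 33278 nuclear genes, with 2-fold and 1.5-fold as limits and 1 FPKM in either genotype for an expressed gene. No test was possible. The ratio was tested on simulated data, in which all 100 genes changed 3-fold and all 100 changed 4-fold were recovered. Only genes of at least 10 FPKM were changed and the added noise was small. Recovery was therefore close to certain, checks the arithmetic only and does not cover genes of low level.

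Peaks were called by the authors with Macs2 on BWA alignments against an anti-H3 control, 1 list per library, and the deposited lists give fold enrichment and −log10 q-values, of which positions and q-values were used here. A gene was covered where peaks of one list took at least 50% of its length. Promoters and exons were read from TAIR10.1 with its RefSeq annotation, which named 32820 of the genes. Motifs were searched on both strands. Genes named were the 20 with the largest ratio and the 10 with the largest FPKM difference in each direction, the 2 on each side of each 2-fold limit, members of the gene lists that passed 2-fold, the 3 members of a list with the largest ratio and its key regulators, and changed neighbours. Families, and genes said to be so, were chosen after their values were seen, as were the list members SPX4, WRKY75, PHF1, SQD1, UGP3, EXPA15, XTH9, ELF4, FKF1 and MAF2. All lists and members were chosen with earlier results of these data known. Python 3.11.15, pandas 2.3.3, numpy 2.4.6, scipy 1.17.1 and matplotlib 3.10.9 were used.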

Additional observations from a re-analysis of the deposited data

How the results depend on the processing

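With a pseudocount of 0.1 in place of 1, 786 genes were 2-fold higher and 495 lower. The share of changed genes that were higher was 50.17% after upper-quartile scaling, 43.82% after median scaling (124 higher), 65.68% without a pseudocount among genes of at least 5 FPKM, and 30.63% (68 higher) after centring within purine deciles, an alternative chosen after seeing the data. None of the 201 and 133 genes changed sign under these settings, but none could, so this lends no support. A pseudocount or a filter cannot turn a sign, and the scalings and the centring moved ratios by less than the 2-fold limit. No list changed the direction of its 2-fold calls, which lists without such calls could not do. Of 49 list medians, 8 changed sign after the centring, 6 after median scaling, 5 without a pseudocount, 4 after upper-quartile scaling and 1 with a pseudocount of 0.1. Of these, 5 after the centring (abscisic acid 0.18 to -0.09 and DNA damage 0.20 to -0.08 among them) and 1 without a pseudocount (trichome patterning, 0.13 to -0.20) had been at least 0.1 from 0. For H3K27me3, any overlap gave 13.31% of higher and 47.18% of lower genes, and keeping only peaks whose q-value reached 1e-05 gave 3.483% and 28.76%. For H3K4me3, any overlap gave 73.13% and 31.01%, and cover of at least 50% of the gene 14.3% and 11.7%. Leaving out each peak list, with cover of at least 50%, gave 9.786 to 10.62% and 38.85 to 39.35% for H3K27me3, and 12.77 to 15.42% and 11.03 to 12.28% for H3K4me3, in higher and lower genes. With 1000 bases before the start, P1BS was found in 18.9% of higher and 47.7% of lower genes, also chosen after seeing the data. The cause of these shifts was not tested. No paired analysis was possible because the 2 columns hold 1 combined value per genotype and carry no replicate numbers.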
